A study of Homo sapiens with 16 samples.

Results

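TMEM genes are the protein-coding genes whose symbol is TMEM followed by a number. The counts held 301 such symbols, of which 236 were protein coding, and the 145 of them with at least 500 reads summed over all libraries are the members described here, out of 58302 gene identifiers in all. Another 91 coding TMEM genes lay under this minimum, 27 of them without a read. TMEM145, TMEM170B and TMEM220 lay just inside it with 517, 524 and 560 reads, and TMEM132E, TMEM271 and TMEM163 just outside it with 487, 457 and 423. Since summed reads chose the members, their levels are a description.

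All libraries came from HEK293, an established human embryonic kidney line. In siRNAG5 cells Gemin5, an RNA-binding protein of the SMN complex, was silenced with 100 nM of a lipofected small interfering RNA (siRNA), a short RNA duplex that directs cleavage of a matching mRNA. In Ctrl cells it was not: their sample labels say untreated, whereas the treatment protocol and the methods name a control siRNA. RNA of the cytoplasmic lysate (Input) and of the pooled heavy gradient fractions (Polysome) was sequenced from 4 independent cultures of each kind, which gave 16 libraries in the groups Input Ctrl, Input siRNAG5, Polysome Ctrl and Polysome siRNAG5.

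The name TMEM is a numbered placeholder for proteins predicted to cross a membrane, and it groups proteins by this feature and not by descent or function. Their mRNAs are mostly translated at the endoplasmic reticulum (ER), where the signal recognition particle, the Sec61 channel and helper insertases place hydrophobic stretches into the lipid bilayer. Members work in the ER itself, in the Golgi, in lysosomes, in mitochondria, in the nuclear envelope and at the base of the primary cilium.

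The coding sequences of the members gave this feature directly. A hydrophobic segment was counted where the Kyte-Doolittle mean over 19 residues reached 1.6. At least 2 such segments were found in 119 members, 1 in 22 and none in 4, and TMEM245 had the most with 16. Among the other coding genes with the same read minimum, 70.6% had none. The members' coding regions were shorter, with a median of 822 bases against 1377 in those genes, and their 3' UTRs had a median of 1167 bases against 1328.

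Sequences are shown for the agent that separates the groups and for places in TMEM mRNAs that match a part of it. The siRNA against Gemin5 is printed as its sense strand, with capitals for the 7 bases that pair with bases 2 to 8 of the guide strand, the seed. Its 19 paired bases were found in the coding sequence of 1 gene, GEMIN5. The seed site AAGAGAA, searched on the mRNA strand of the 3' UTR in the canonical transcript of each gene (GENCODE v44), was found in 42 members. Of the members 29.0% held a site, beside 24.9% of the other coding genes with the same read minimum. Of the 2624 such other genes with a site 153 fell and 194 rose in Input, and of the 7905 without one 538 and 812. The site lay in 2 members that rose in Input after silencing and in 7 of the 14 that fell. Each of the 10 sites of the latter is shown in capitals with its GRCh38 position, and whether the siRNA acted there was not tested.
Gemin5 siRNA: ccuuaaucaagAAGAGAAauu
TMEM106C, chr12:47968648-47968674, plus strand: ccaaatacctAAGAGAAaacagaccta
TMEM14B, chr6:10756579-10756605, plus strand: tcaatgtattAAGAGAAataagtgcag
TMEM199, chr17:28361758-28361784, plus strand: gacatcaaatAAGAGAAagatgggttg
TMEM234, chr1:32216686-32216712, minus strand: ggatcacaatAAGAGAAcaagagtgaa
TMEM33, chr4:41957226-41957252, plus strand: tatcaatctaAAGAGAAatttattatg
TMEM87A, chr15:42211533-42211559, minus strand: tgtcagaacaAAGAGAAcatcttactg
TMEM87A, chr15:42211124-42211150, minus strand: aaaaaaaaaaAAGAGAAactgttacag
TMEM87A, chr15:42211015-42211041, minus strand: atgtactttaAAGAGAAatattagctt
TMEM97, chr17:28327638-28327664, plus strand: ccaaggaaaaAAGAGAAaacatactat
TMEM97, chr17:28327968-28327994, plus strand: ttgttttcagAAGAGAAggtggctaca

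The study asks which mRNAs Gemin5 brings to polysomes, and mRNAs with a 5' terminal oligopyrimidine (TOP) tract are a class it examines. A TOP-like start was taken as a C followed by at least 4 C or T on the transcript's own strand. It was found in 8 of the 120 members that have an entry in the RefSeq promoter table (GRCh38.p14), which is 6.67%, and in 4.07% of all 35116 entries. A member was counted where any of its entries matched, whereas the latter share is of single entries, so the shares are not directly comparable. The first 20 bases of the starts with the longest pyrimidine runs, TMEM33, TMEM97 and TMEM80, are shown with the run in capitals, beside TMEM208, the member with the largest fall in both fractions, which has no such run.
TMEM33, chr4:41935429-41935448, plus strand: CTCCCCTTTCTTCTCTCTTC
TMEM97, chr17:28319200-28319219, plus strand: CTCTTCTCacatcagcgggt
TMEM80, chr11:695639-695658, plus strand: CCCTTCCgaaagtgcccgag
TMEM208, chr16:67227130-67227149, plus strand: ggaagtgcatgagctgccga

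Reads on genes numbered 11145324 to 24511299 per library. Input Ctrl had 13347866 to 18053614 and Input siRNAG5 18411789 to 24511299, without overlap. Reads at several places were left out, at 4.88 to 5.43% of the Input Ctrl libraries and 5.30 to 6.04% of Input siRNAG5. They made up 21.2 to 32.8% of Polysome Ctrl and 26.3 to 42.4% of Polysome siRNAG5, and their part in the results was not tested. GEMIN5 itself fell in Input from 17.9 ± 2.32 to 6.72 ± 0.529 CPM (SD, n = 4 per group), where CPM are reads scaled by TMM factors to 1000000 per library, a log2 FC of -1.40 ± 0.12 (SE), and in Polysome from 7.44 ± 1.56 to 2.65 ± 0.495, a log2 FC of -1.44 ± 0.21. Reads on 14 liver markers, which HEK293 cells should lack, summed to 1427 to 1978 in all Polysome Ctrl libraries and to 1665 and 1363 in Input Ctrl 3 and 4, against 9 to 26 in the other 10 libraries, and APOB, APOC3, APOH, SERPINA1 and FGA were at 0 in both siRNAG5 groups. In Polysome these reads and the treatment cannot be told apart. Fold changes were scaled by TMM factors. With library size alone the log2 value of a typical gene was higher by 0.11 in Input and by 0.35 in Polysome for silencing, and by 0.54 in Ctrl and 0.74 in siRNAG5 for Polysome over Input. Directions are therefore relative to the bulk of genes, and in bulk RNA fewer cells of a kind and less RNA per cell cannot be told apart.

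**Figure D1:**
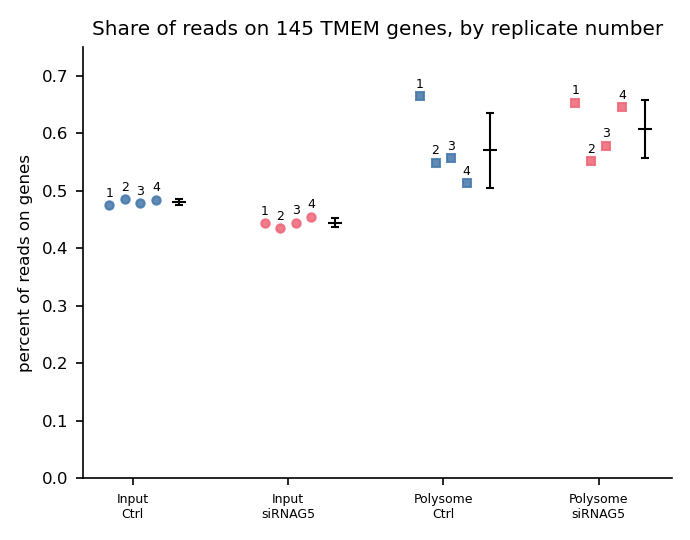
Share of the reads on genes that fell on the 145 TMEM genes (vertical axis, percent), for each library (points, numbered by replicate), with the mean and SD of 4 libraries beside them. Input siRNAG5 lies at 0.435 to 0.455%, under all Input Ctrl libraries at 0.475 to 0.485%, while the Polysome libraries are higher and overlap between treatments.

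The members together took 0.481 ± 0.00497% of the reads in Input Ctrl and 0.445 ± 0.00837% in Input siRNAG5, and these groups did not overlap. Polysome Ctrl 1 to 4 had shares of 0.664, 0.549, 0.556 and 0.513%, and Polysome siRNAG5 1 to 4 of 0.653, 0.551, 0.579 and 0.646%. The highest shares were those of Polysome Ctrl 1 and Polysome siRNAG5 1 and 4, and the treatments overlapped, as the plot of shares by library shows.

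Levels between genes were compared per kilobase of annotated exon, as TPM, which scale the length-corrected reads of all coding genes to the same sum of 1000000. In Input Ctrl the median member stood at 7.79 TPM, where the coding genes with the same read minimum had a median of 5.73 TPM. Levels ran from 0.169 TPM (TMEM178B) to 494 TPM (TMEM147), with 63 members over 10 TPM, 15 over 100 TPM and 10 under 1 TPM. The 5 highest were TMEM147 (494 TPM), TMEM160 (489 TPM), TMEM14C (392 TPM), TMEM179B (224 TPM) and TMEM106C (212 TPM), which took 22.4% of the members' reads. TMEM147 is an ER protein of the translocon for multipass membrane proteins, and TMEM14C is a mitochondrial protein needed for heme synthesis. The ranges over the 4 libraries of TMEM147, at 483 to 552 TPM, and of TMEM160, at 438 to 527 TPM, overlapped, so their order is not resolved, and the same holds for TMEM179B, at 218 to 229 TPM, and TMEM106C, at 210 to 220 TPM.

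The first comparison asks which TMEM mRNAs changed in the cytoplasm when Gemin5 was silenced. A gene was called where edgeR's quasi-likelihood test gave a Benjamini-Hochberg adjusted p under 0.05 over all genes tested and a log2 FC beyond 0.5. In Input 13 members rose, where 10.5% of all 14134 genes did (background), which is 8.97% of the members. Another 14 fell, which is 9.66% of the members beside a background of 6.02%. The median log2 FC of the members was -0.08, and that of all genes was 0.04. Scaled by library size alone, 23 rose and 9 fell. The median of all genes was then 0.14, and the share of all genes called is not given here. Libraries of the 2 groups did not overlap for 25 members that were higher in siRNAG5 (background 15.1%) and 40 that were lower (background 19.1%).

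The largest rises in Input were those of TMEM44, TMEM129, TMEM8B, TMEM101, TMEM161B and TMEM47. TMEM129, an ER ubiquitin ligase for misfolded proteins (ENSG00000168936, chr4:1715952-1721358, minus strand), stood at 10.2, 8.08, 9.60 and 13.2 CPM in the 4 Ctrl libraries and at 23.1, 19.7, 19.1 and 18.7 in siRNAG5. All siRNAG5 libraries were above all Ctrl libraries, and the log2 FC was 0.99 ± 0.12 (adjusted p = 1.78e-07). TMEM44 went from 2.39, 1.80, 3.47 and 2.94 CPM to 5.93, 4.09, 5.73 and 5.31, again without overlap, with a log2 FC of 1.02 ± 0.19 (adjusted p = 8.99e-05). TMEM101, the most abundant of the 6, went from 28.0, 28.2, 30.4 and 32.3 to 60.4, 52.5, 51.3 and 47.8 CPM, with a log2 FC of 0.85 ± 0.09 (adjusted p = 6.11e-09). The log2 FC was 0.91 for TMEM8B, 0.78 for TMEM161B and 0.76 for TMEM47, a claudin-like junction protein, and for TMEM161B and TMEM47 the Ctrl and siRNAG5 libraries overlapped.

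The largest falls were those of TMEM208, TMEM220, TMEM106C, TMEM70, TMEM199 and TMEM87A. TMEM208, the ER protein of the SRP-independent targeting route (ENSG00000168701, chr16:67227103-67229278, plus strand), stood at 165, 193, 176 and 166 CPM in Ctrl and at 99.4, 103, 101 and 98.8 in siRNAG5. The siRNAG5 libraries were close together and all below the Ctrl libraries, at a log2 FC of -0.79 ± 0.07 (adjusted p = 3.59e-10). TMEM106C, shown with its seed site above, went from 364, 368, 380 and 346 to 219, 220.4, 213 and 224 CPM, at a log2 FC of -0.72 ± 0.06 (adjusted p = 2.64e-10). TMEM70, an assembly factor of the mitochondrial ATP synthase, went from 95.6, 104, 95.1 and 93.0 to 54.2, 57.2, 62.2 and 63.0 CPM, at a log2 FC of -0.70 ± 0.07 (adjusted p = 1.00e-08). For TMEM199, an assembly factor of the V-ATPase, the log2 FC was -0.69 ± 0.12, and for TMEM87A, a Golgi protein, it was -0.66 ± 0.14, both without overlap. TMEM220 overlapped between groups, and without Input Ctrl 2 its log2 FC of -0.79 became -0.64 and it was no longer called.

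Of the 27 calls in Input, 20 held in every fit that left out 1 library. With Input Ctrl 3 and 4, the libraries with liver reads, left out together, 20 members rose and 15 fell. The share of all genes called in that fit is not given here, so the counts show only how the calls depend on these libraries.

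The second comparison asks the same of the mRNAs in polysomes. In Polysome 10 members rose, which is 6.90% of them beside a background of 3.95% of 14420 genes, and 7 fell, which is 4.83% beside a background of 4.00%. Scaled by library size alone, 30 rose and 1 fell. The median of all genes was then 0.38, and the share of all genes called is not given here. The groups did not overlap for 16 members that were higher (background 8.29%) and 19 that were lower (background 10.0%). With TMM factors the median log2 FC of the members was -0.02, and that of all genes was 0.03. The spread was wider than in Input, with a median SE of the members of 0.20 against 0.11.

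**Figure D2:**
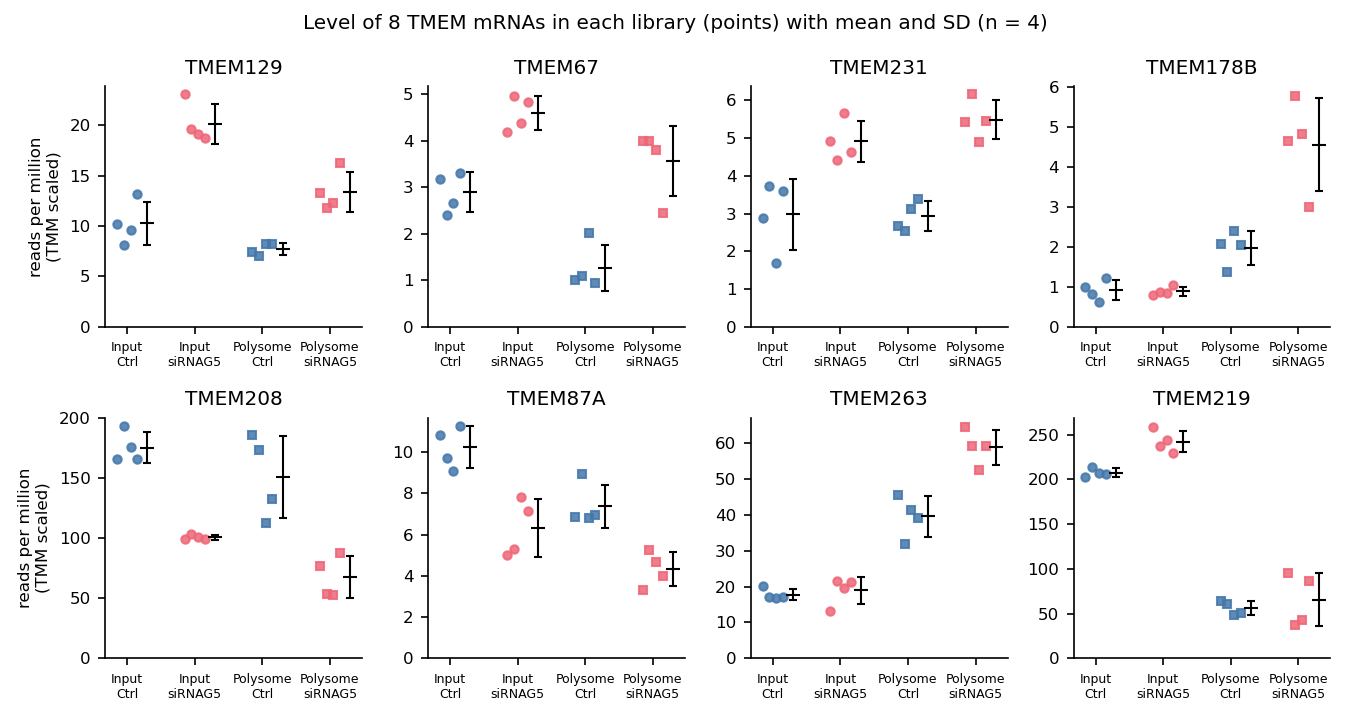
TMM-scaled reads (CPM) of 8 TMEM mRNAs in each library (points, blue for Ctrl and red for siRNAG5, circles for Input and squares for Polysome), with mean and SD of 4 libraries. TMEM129, TMEM67 and TMEM231 are higher in siRNAG5 in both fractions, TMEM178B and TMEM263 in Polysome with overlapping Input groups, and TMEM208 and TMEM87A are lower in both, while TMEM219 is far lower in Polysome than in Input under both treatments.

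TMEM67, or meckelin, a receptor-like protein of the ciliary transition zone, had the largest rise. In Polysome it stood at 0.999, 1.10, 2.01 and 0.944 CPM in Ctrl and at 4.00, 4.00, 3.79 and 2.44 in siRNAG5. Every siRNAG5 library lay above every Ctrl library, although Ctrl 3 and siRNAG5 4 came near each other, and the log2 FC was 1.50 ± 0.29 (adjusted p = 0.0147), a 2.83-fold rise. TMEM178B followed with 2.08, 1.37, 2.40 and 2.05 CPM in Ctrl and 4.66, 5.77, 4.82 and 3.00 in siRNAG5, at a log2 FC of 1.25 ± 0.26 (adjusted p = 0.0177). TMEM231, which acts with meckelin at the transition zone, went from 2.66, 2.54, 3.13 and 3.38 to 5.43, 6.16, 4.91 and 5.44 CPM, at a log2 FC of 0.95 ± 0.18 (adjusted p = 0.0136). The remaining rises named by size were TMEM135 at 0.85 ± 0.21, TMEM129 at 0.83 ± 0.15 and TMEM47 at 0.77 ± 0.20, and of these the groups of TMEM135 overlapped.

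TMEM208 had the largest fall in Polysome as in Input, from 186, 173, 112 and 132 CPM in Ctrl to 77.1, 53.4, 52.5 and 87.7 in siRNAG5, at a log2 FC of -1.12 ± 0.22 (adjusted p = 0.0150). The highest siRNAG5 library was below the lowest Ctrl library, and within both treatments the libraries were spread widely. TMEM104 fell from 3.00, 4.53, 4.35 and 5.74 to 1.95, 2.27, 2.64 and 2.86 CPM, at a log2 FC of -0.81 ± 0.22 (adjusted p = 0.0477). The log2 FC was -0.72 for TMEM87A, -0.71 for TMEM199, -0.65 for the ciliary TMEM138 and -0.63 for TMEM250, and all of these groups were apart. The seventh fall was that of TMEM97, the sigma-2 receptor of cholesterol transport, shown above with its TOP-like start and 2 seed sites, at -0.57 ± 0.12 in Polysome and -0.52 ± 0.07 in Input.

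The Polysome calls depended on single libraries. None of the 17 held in every fit that left out 1 library, and without Polysome Ctrl 2 no member was called. Without Polysome Ctrl 4, 5 rose and 3 fell, without Polysome siRNAG5 1, 4 rose and 2 fell, without siRNAG5 2 or siRNAG5 3, 5 rose and 1 fell each, and without siRNAG5 4, 10 rose and 10 fell. With 1 surrogate variable in the fit 20 rose and 17 fell, and DESeq2 called 14 in each direction. The shares of all genes called in Polysome by these fits are not given here, so the counts show only how the calls depend on the method.

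**Figure D3:**
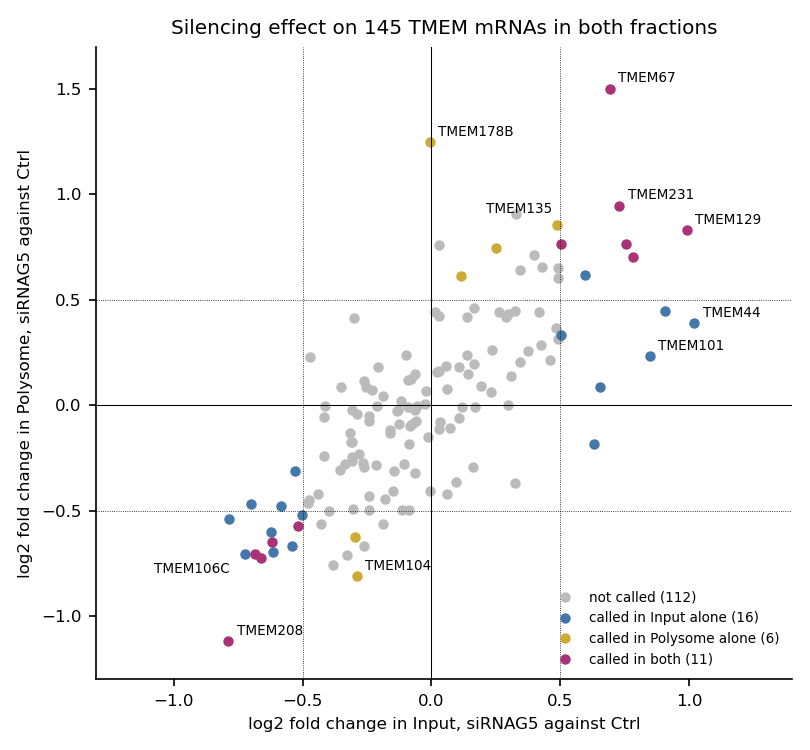
Log2 FC of siRNAG5 against Ctrl in Input (horizontal) and Polysome (vertical) for the 145 TMEM mRNAs, colored by where each was called, with dotted lines at a log2 FC of 0.5 in each direction. Of the members, 11 were called in both fractions, always in the same direction, and TMEM178B stands apart with 1.25 in Polysome and -0.01 in Input.

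The Input and Polysome libraries are different libraries, so the 2 results can be set side by side. TMEM129, TMEM161B, TMEM231, TMEM266, TMEM47 and TMEM67 rose in both, which is 46.2% of the 13 rises in Input and 60.0% of the 10 in Polysome. These are 6 of 145 members, and 2.47% of the genes tested in both fractions rose in both (background). TMEM138, TMEM199, TMEM208, TMEM87A and TMEM97 fell in both, which is 35.7% of the 14 falls in Input and 71.4% of the 7 in Polysome, beside 2.48% of those genes (background). No member was called in opposite directions. The log2 FC had the same sign in 117 of 145 members, which is 80.7%, and in 75.9% of the 13708 genes tested in both fractions (background). Across these genes, which are not independent replicates and whose fractions share the cultures they came from, the plot of the log2 FC in both fractions shows the members along the diagonal.

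The study terms mRNAs G5-Repressed where silencing raises them in Polysome without a significant change in Input. Counted here as called higher in Polysome and not called higher in Input, 4 members had a pattern of this kind, TMEM135, TMEM178B, TMEM263 and TMEM267, which is 2.76% of the members beside 1.6% of all genes (background). The study's full list of such mRNAs was made with another cutoff and was not used here. Called on the unadjusted p with the same fold limit, 18 members rose in Polysome instead of 10. The share of all genes under that rule is not given here. At an unadjusted p under 0.05 with no fold limit, 24 members were higher, beside 14.4% of all genes (background). TMEM178B, which a supplementary table of the study lists, stood in Input at 0.995, 0.823, 0.622 and 1.23 CPM in Ctrl and at 0.799, 0.872, 0.847 and 1.05 in siRNAG5, which overlap. TMEM263 had a log2 FC of 0.61 ± 0.14 in Polysome and 0.12 ± 0.12 in Input, and TMEM267 had 0.75 ± 0.18 and 0.25 ± 0.20. TMEM135, which has a role in peroxisomes and mitochondria, had 0.49 ± 0.15 in Input (adjusted p = 0.00909), just under the fold limit, and its Input groups did not overlap. The reverse pattern, G5-Enhanced, was that of 2 members, TMEM104 and TMEM250, beside 1.64% of all genes (background). TMEM176A, likewise listed in a supplementary table of the study, did not reach the read minimum. In Input it had 0, 2, 6 and 5 reads in Ctrl and 0, 0, 2 and 1 in siRNAG5, and in Polysome it had 6, 2, 9 and 10 reads in Ctrl and 1, 1, 0 and 0 in siRNAG5. In Input Ctrl its reads were highest in replicates 3 and 4, which also held the liver reads, and the part of those in its counts was not tested.

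Whether the effect in Polysome differed from that in Input was tested directly in 1 fit of the 16 libraries. No member was called in either direction by edgeR's quasi-likelihood test (background 0.00% each way) or by DESeq2 (background 0.120% higher and 0.0735% lower). At an unadjusted p under 0.05, with no fold limit, 7 members were higher (background 2.59%) and 9 were lower (background 4.69%). The largest difference was that of TMEM178B, at 1.23 ± 0.39 (adjusted p = 0.483), followed by TMEM67 at 0.78 ± 0.32 (adjusted p = 0.594) and TMEM241 at 0.69 ± 0.23 (adjusted p = 0.486). On the other side were TMEM74B at -0.84 ± 0.24 (adjusted p = 0.432), TMEM132A at -0.73 ± 0.28 (adjusted p = 0.547) and TMEM101 at -0.64 ± 0.20 (adjusted p = 0.486). With 1 surrogate variable TMEM54 (0.50) and TMEM241 (0.72) were called higher and TMEM132A (-0.92) and TMEM43 (-0.69) lower, beside 0.542% and 2.73% of all genes (background).

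TMEM74B shows the form of such a difference. It rose in Input, from 4.68, 4.34, 5.69 and 6.16 to 8.53, 7.72, 8.12 and 7.57 CPM. In Polysome it stood at 7.99, 5.77, 5.02 and 7.00 in Ctrl and at 5.48, 5.43, 4.33 and 6.73 in siRNAG5, which overlap. TMEM101 likewise rose in Input and had a log2 FC of 0.23 ± 0.19 in Polysome, where it stood at 20.1, 15.7, 14.7 and 13.9 CPM in Ctrl and at 22.0, 15.7, 14.4 and 21.5 in siRNAG5.

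Polysome loading is the log2 of the level in Polysome over that in Input within 1 treatment. It uses the same libraries as the silencing comparisons, and the values are therefore placed side by side only. In Ctrl cells 12 members were called higher in Polysome, which is 8.28% of them beside a background of 20.8% of 13666 genes, and 27 were called lower, which is 18.6% beside a background of 18.8%. In siRNAG5 cells 18 were higher (12.4%, background 23.9% of 14795 genes) and 27 lower (18.6%, background 21.2%). The median loading of the members was -0.20 in Ctrl and -0.16 in siRNAG5, and that of all genes was -0.03 and -0.04. These directions follow the scaling, since with library size alone 49 were higher and 5 lower in Ctrl, and 83 higher and 3 lower in siRNAG5. The median loading of all genes was then 0.51 in Ctrl and 0.69 in siRNAG5, and the shares of all genes called are not given here. In Ctrl 15 members were higher in all Polysome libraries than in any Input library (background 21.2%) and 38 were lower (background 23.2%), and in siRNAG5 21 were higher (background 22.9%) and 49 lower (background 27.5%).

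**Figure D4:**
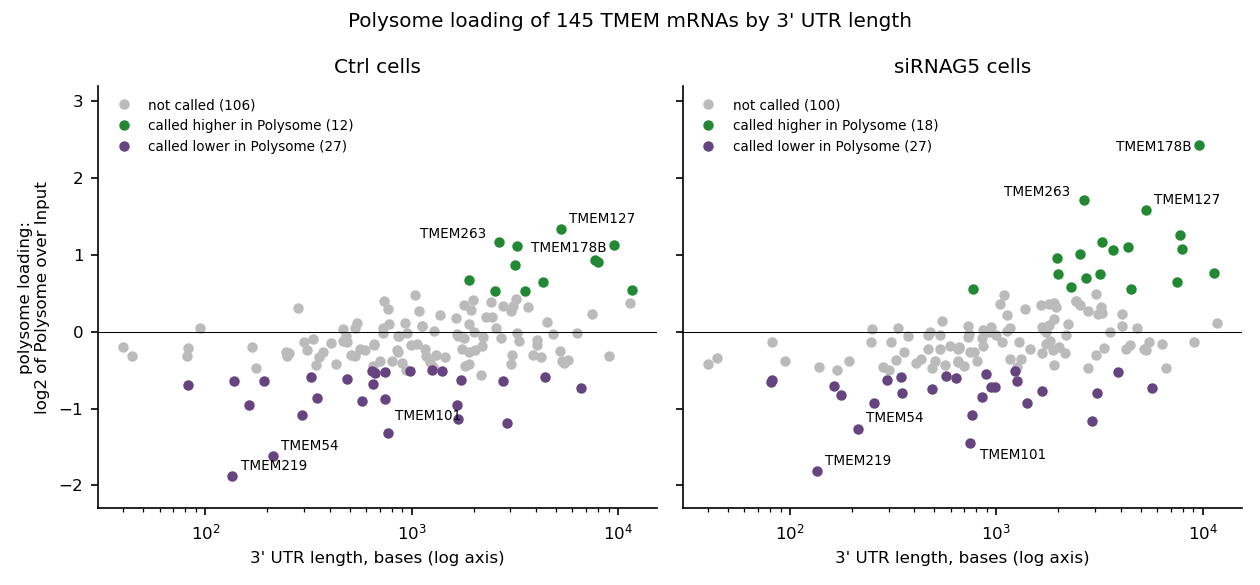
Polysome loading (log2 of Polysome over Input) of the 145 TMEM mRNAs against the length of the 3' UTR in bases (log axis), in Ctrl cells (left) and siRNAG5 cells (right), with called members in color. The members called higher lie almost all at long 3' UTRs, 11 of 12 in Ctrl and 17 of 18 in siRNAG5 among the 49 members with the longest, and none lies among the 49 with the shortest. The relation was also seen among the other coding genes, with a Spearman's rho of 0.46 in Ctrl and 0.52 in siRNAG5.

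The most loaded member in Ctrl was TMEM127, an endosomal and lysosomal tumor suppressor. It stood at 3.18, 3.59, 4.18 and 4.64 CPM in Input and at 9.83, 9.20, 9.88 and 10.1 in Polysome, a loading of 1.33 ± 0.16 (adjusted p = 9.53e-06). TMEM263 went from 20.1, 17.1, 16.7 and 17.1 to 45.6, 31.9, 41.5 and 39.3 CPM, a loading of 1.17 ± 0.13 (adjusted p = 5.17e-06). TMEM178B had a loading of 1.13 ± 0.30, TMEM47 of 1.11 ± 0.25 and TMEM65, a protein of the inner mitochondrial membrane, of 0.94 ± 0.14. In all 5 the Polysome libraries lay above the Input libraries. In siRNAG5 cells their loadings were 1.59 for TMEM127, 1.71 for TMEM263, 2.43 for TMEM178B, 1.17 for TMEM47 and 1.26 for TMEM65, and all were called.

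The least loaded was TMEM219, the cell death receptor of IGFBP3 (ENSG00000149932, chr16:29940885-29973050, plus strand). In Ctrl it stood at 202, 214, 208 and 206 CPM in Input and at 63.9, 60.9, 48.8 and 50.6 in Polysome, a loading of -1.88 ± 0.13 (adjusted p = 4.27e-08). The Polysome level was thus 0.273 of the Input level, and in siRNAG5 cells 0.285 of it. TMEM54 had a loading of -1.62 ± 0.14, TMEM161A of -1.32 ± 0.11, TMEM134 of -1.19 ± 0.17 and TMEM67 of -1.13 ± 0.28 in Ctrl. The first 3 of these were also called lower in siRNAG5, at -1.26, -1.09 and -1.16. TMEM67 was not, at -0.28 ± 0.19, and the difference between treatments, 0.78 in the fit of all 16 libraries, did not pass the test.

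Called loadings of opposite direction in the 2 treatments did not occur. In both treatments TMEM123, TMEM127, TMEM164, TMEM170B, TMEM178B, TMEM263, TMEM30A, TMEM47 and TMEM65 were called higher, which is 75.0% of the 12 in Ctrl and 50.0% of the 18 in siRNAG5. These are 9 of 145 members, and 18.5% of the 13572 genes tested in both treatments were called higher in both (background). Another 16 were called lower in both, which is 59.3% of the 27 in each treatment, beside 15.8% of those genes (background). In every fit that left out 1 library, 25 of the 39 calls in Ctrl and 34 of the 45 in siRNAG5 held. Without Polysome Ctrl 1, 8 members were called higher in Ctrl, and with Input Ctrl 3 and 4 left out together 7 were higher and 17 lower. The shares of all genes called in these fits are not given here.

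Loading was compared with the length of the 3' UTR, a property that the choice of members did not use. Among the 49 members with the shortest 3' UTRs, 40 to 727 bases, none was called higher in Ctrl and 14 were lower, with a median loading of -0.31. Among the 47 of middle length, 738 to 1939 bases, 1 was higher and 9 lower, with a median of -0.22. Among the 49 longest, 1973 to 11678 bases, 11 were higher and 4 lower, with a median of -0.01 in Ctrl and of 0.23 in siRNAG5. Calls among other coding genes by 3' UTR length are not given here. TMEM219 at 135 bases and TMEM54 at 213 bases lie at the short end, and TMEM127 at 5297 and TMEM178B at 9597 bases at the long end, as the plot of loading by 3' UTR length shows. Across the 145 members, Spearman's rho of loading with 3' UTR length was 0.39 in Ctrl (Pearson's r 0.40) and 0.51 in siRNAG5 (r 0.48). Across the 10526 and 10524 other coding genes it was 0.46 and 0.52, so the relation was also seen outside the TMEM genes. The points share libraries and their base composition varies, and the rho of GC percent with loading was -0.34 in Ctrl and -0.54 in siRNAG5 among the members, against -0.17 and -0.30 among the other genes. Among the members the 5' UTR length had a rho of 0.31 in Ctrl and 0.29 in siRNAG5 with loading, and the transcript length one of 0.29 and 0.42. The number of hydrophobic segments had a rho of -0.10 and -0.02 with loading, and the coding length one of -0.17 and -0.06.

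Members were then read by what they are known to do, in groups chosen from general knowledge. Of the 5 ER proteins of insertion, glycosylation and quality control, TMEM129 rose and TMEM208 fell in both fractions. The others stayed without a call for silencing, namely TMEM147 at -0.47 ± 0.06 in Input, past the adjusted p (8.54e-07) but within the fold limit, TMEM258, a subunit of the oligosaccharyltransferase, at -0.26 ± 0.07, and TMEM259, or membralin, at 0.03 ± 0.08. The group's median was -0.26 in Input and -0.45 in Polysome.

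Of the 10 mitochondrial members, 9 had a negative log2 FC in Input and 9 in Polysome, with medians of -0.37 and -0.40. Of all 145 members, 84 were negative in Input and 80 in Polysome. With library size alone the log2 value of a typical gene was higher by 0.11 in Input and 0.35 in Polysome, so these signs are relative to the TMM scaling. In Input TMEM70 and TMEM177, an assembly factor of cytochrome c oxidase, fell, beside 6.02% of all genes (background), and in Polysome none was called. TMEM177 went from 90.3, 99.6, 99.7 and 97.9 to 62.4, 61.2, 67.3 and 65.0 CPM in Input, at a log2 FC of -0.59 ± 0.07 (adjusted p = 9.63e-08), and the libraries were apart. TMEM65 was highest of the group in both fractions, at 0.14 and 0.42 without a call.

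Of the 9 members of the ciliary transition zone, TMEM67, TMEM107 and TMEM231 rose and TMEM138 fell in Input. In Polysome TMEM67 and TMEM231 rose and TMEM138 fell. Of all genes 10.5% rose and 6.02% fell in Input, and 3.95% and 4.00% in Polysome (background). The medians of the group were 0.17 in Input and 0.21 in Polysome. TMEM107 stood in Input at 19.4, 14.8, 18.9 and 14.2 CPM in Ctrl and at 25.4, 23.0, 26.0 and 26.1 in siRNAG5, at a log2 FC of 0.60 ± 0.10 (adjusted p = 3.49e-05). TMEM138 went from 29.0, 36.4, 29.3 and 29.1 to 20.1 ± 1.27 (SD), all lower, at -0.62 ± 0.10 (adjusted p = 6.87e-06). Proteins of 1 structure thus had mRNAs that moved in both directions.

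**Figure D5:**
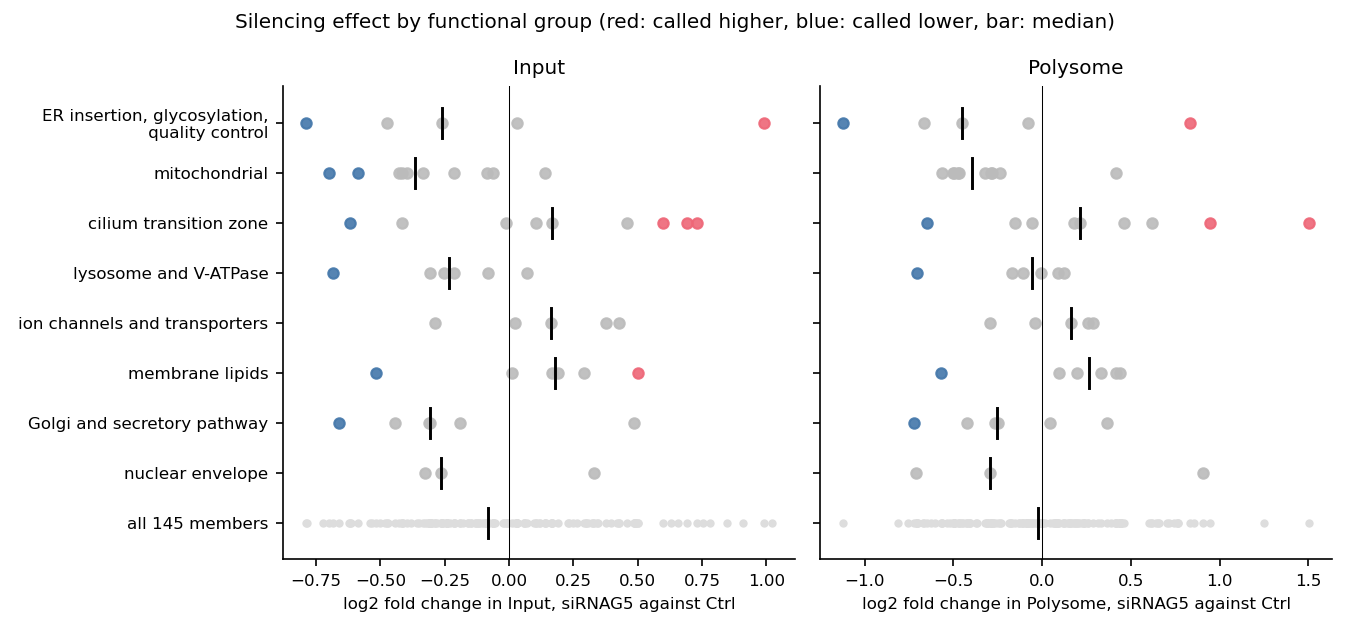
Log2 FC of siRNAG5 against Ctrl in Input (left) and Polysome (right) for TMEM mRNAs by functional group (rows), with red for called higher, blue for called lower, gray for not called and a bar at the median. The mitochondrial row lies left of 0 but for TMEM65 in both panels, and the row of the ciliary transition zone holds both the largest rise in Polysome, 1.50 for TMEM67, and called falls.

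Of the 6 members of the lysosome and the V-ATPase, TMEM199 fell in both fractions, and the others were not called for silencing, with medians of the group of -0.23 in Input and -0.06 in Polysome. The range of loading was wide here, from -0.96 ± 0.15 for TMEM175, a lysosomal ion channel (adjusted p = 6.91e-05), to the 1.33 of TMEM127. Of the 5 ion channels and transporters counted, none was called for silencing, with medians of 0.16 in both fractions. In loading TMEM38A, TMEM63A and TMEM63B were called lower under both treatments, beside 15.8% of the genes tested in both (background). TMEM38A, a potassium channel of the ER, stood in Ctrl at 4.97, 6.29, 4.89 and 6.16 CPM in Input and at 3.25, 2.40, 3.63 and 2.12 in Polysome, which are apart, at -0.95 ± 0.21 (adjusted p = 0.00151).

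Of the 6 members that act on membrane lipids, TMEM97 fell in both fractions and TMEM30A, the partner subunit of phospholipid flippases, rose in Input, at 0.50 ± 0.13 (adjusted p = 0.00270). TMEM164, an acyltransferase, was called higher in Polysome than Input at 0.64 in Ctrl and 1.10 in siRNAG5. Of the 6 Golgi and secretory members TMEM87A fell in both fractions, and 5 had a negative log2 FC in Input, with a median of -0.31. Of all 145 members, 84 were negative in Input. Of the 3 nuclear envelope members none was called for silencing. TMEM209 had a log2 FC of 0.91 ± 0.29 in Polysome (adjusted p = 0.0728) and TMEM43 one of -0.71 ± 0.26 (adjusted p = 0.106), so that the largest values in both directions missed the test here.

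The 38 genes of the machinery that inserts membrane proteins were read from the same fits. In Input 1 rose and 7 fell, beside the 10.5% and 6.02% of all genes given above, and 30 had a negative log2 FC, with a median of -0.29. Without Input Ctrl 1, 11 fell. CAMLG, the membrane receptor of the GET route, rose from 91.7 ± 7.65 to 141 ± 8.05 CPM, at a log2 FC of 0.64 ± 0.07 (adjusted p = 2.51e-08). GET3, the ATPase of the same route, fell from 175 ± 14.1 to 113 ± 3.08 CPM, at -0.62 ± 0.07 (adjusted p = 2.36e-08). EMC6, EMC8, GET4, NCLN, SEC61B and TRAM1 were the other falls. In Polysome none rose and EMC10, GET3, NCLN and SRPRB fell, beside 3.95% and 4.00% of all genes, with a median of -0.31. These 4 falls became 1 without Polysome Ctrl 2 or without any 1 of siRNAG5 1, 2 and 3, and 7 without Polysome Ctrl 3. NCLN, or nicalin, which binds TMEM147 in the multipass translocon, had a log2 FC of -0.58 ± 0.08 in Input and -0.82 ± 0.14 in Polysome. Scaled by library size alone 1 gene of the machinery rose and 1 fell in Input, and 2 rose and none fell in Polysome. The shares of all genes called under that scaling or with a library left out are not given here.

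The seed sites printed above were set beside the changes. The 42 members with a site had a median log2 FC of -0.22 in Input and -0.10 in Polysome, and the 103 without one had -0.01 and 0.00. Of those with a site 2 rose and 7 fell in Input, and of those without 11 rose and 7 fell. In Polysome 1 rose and 4 fell with a site, and 9 rose and 3 fell without. Of the 2624 other coding genes with a site 194 rose and 153 fell in Input, and of the 7905 without 812 rose and 538 fell. Among the other coding genes 24.9% held a site, against 29.0% of the members, and their medians were 0.00 in Input and 0.07 in Polysome with a site and 0.00 and -0.01 without. Members with a site had longer 3' UTRs, with a median of 2156 bases against 866, and the part of either in the difference was not tested. The 8 members with a TOP-like start had log2 FCs from -0.53 to 0.46 in Input and from -0.67 to 0.66 in Polysome, with medians of -0.09 and 0.06, and the calls among them were the falls of TMEM97 in both fractions and of TMEM33 in Input.

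Several members share exon sequence with a neighbor. In the annotation 54 members overlap an exon of a gene on the opposite strand and 21 one on the same strand. The library kit keeps strand, but whether the counting used it is not given in the sources used here, and without it reads of both genes cannot be told apart. This touches TMEM129, whose partner TACC3 had 647% of its reads, TMEM8B with HINT2 (1139%), TMEM74B with PSMF1 (3902%), TMEM161B with TMEM161B-DT (312%) and TMEM44 with TMEM44-AS1 (204%).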

How the data were processed

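The authors prepared stranded libraries of polyadenylated RNA, aligned the reads to GRCh38 (STAR 2.5.3a) and used QoRTs to obtain raw counts for each gene, which were deposited as 1 column per library. Reads on no gene, several genes or several places stood apart (0.667 to 1.33%, 4.14 to 7.41% and 4.88 to 42.4% of a library) and were left out. The last of these shares was far larger in Polysome than in Input, as given above. Depth, which bears on precision, is given in the text as ranges over libraries.

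Gene types, symbols and lengths came from GENCODE v44, which named 57532 identifiers. Members and gene lists were chosen with earlier results of these data known. All genes passing filterByExpr were fitted with TMM factors and the quasi-likelihood F test of edgeR 4.0.16 (R 4.3.3), with Benjamini-Hochberg adjustment, each comparison with its own 8 libraries and the difference between fractions with all 16. All 145 members passed the filter. Fits were tested on simulated counts. Values per library are CPM (reads scaled by TMM factors to 1000000 per library, ± SD), and ± after a log2 FC is its SE. Alternatives were DESeq2 1.42.0, RLE, no filter, a replicate block, 1 surrogate variable (sva 3.50.0), all libraries in 1 fit, the unadjusted p, read minima of 100 and 2000, and each library left out. Library size alone, the libraries with liver reads left out together, and genes with a former TMEM name added were chosen after seeing the data. Named members were the 5 of highest TPM, the 6 largest calls per direction for silencing, the 5 largest for loading in Ctrl, the 2 of smallest p per direction for the difference, the lowest and highest of each list, and the TMEM genes in the tables of the study's supplementary document. Others were chosen after their values were seen. Hydrophobic segments were read from translated GENCODE coding sequences, in place of the RefSeq proteins planned. Figures were drawn with Python 3.11.15 and matplotlib 3.10.9.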

Additional observations from a re-analysis of the deposited data

Results flagged for a closer look

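Within groups of 4 libraries, 1 library stood far from the other 3, by a gap beyond Dixon's critical value for 4 samples, in 11 of 132 groups tested. Chance gives about 1 in 20 such groups, and no explanation was tested. In Input Ctrl this was replicate 2 for TMEM147 (535 CPM, nearest other 467) and TMEM138 (36.4, nearest 29.3), replicate 1 for TMEM263 (20.1, nearest 17.1) and replicate 3 for TMEM65 (9.34, nearest 12.3). In Input siRNAG5 it was replicate 4 for TMEM127 (4.31, nearest 3.09) and replicate 1 for TMEM161A (110.2, nearest 92.2). In Polysome Ctrl it was replicate 2 for TMEM87A (8.93, nearest 6.92) and replicate 3 for TMEM67 (2.01, nearest 1.10) and TMEM135 (8.09, nearest 5.59). In Polysome siRNAG5 it was replicate 4 for TMEM67 (2.44, nearest 3.79) and TMEM250 (28.4, nearest 21.6).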

How the results depend on the processing

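No called value of a named member changed sign under any alternative run. With 1 library left out, members called ranged from 11 to 18 higher and 11 to 16 lower in Input, from 0 to 10 in each direction in Polysome, from 8 to 13 higher and 23 to 31 lower for loading in Ctrl, from 16 to 20 higher and 23 to 33 lower for loading in siRNAG5, and stayed at 0 for the difference, while insertion machinery genes ranged from 5 to 11 lower in Input, from 1 to 7 lower in Polysome, and from 4 to 5 lower and 3 to 3 higher for loading in Ctrl. Library size alone gave 23 members higher and 9 lower in Input, 30 and 1 in Polysome, 49 and 5 for loading in Ctrl, 83 and 3 in siRNAG5, and for the machinery 1 lower in Input, 2 higher and 0 lower in Polysome, and 14 higher and 0 lower for loading in Ctrl. Without the Input Ctrl libraries with liver reads, 20 members were higher in Input, 7 higher and 17 lower for loading in Ctrl, and 1 machinery gene was higher there. In Polysome 1 surrogate variable called 20 higher and 17 lower (machinery 11 lower), all libraries in 1 fit 16 and 23 (machinery 13 lower), the unadjusted p 18 and 16 (machinery 12 lower), DESeq2 14 lower (machinery 9) and no filter 8 machinery genes lower. For the difference 1 surrogate variable called 2 in each direction, and the unadjusted p with the fold limit 4 higher and 5 lower. A minimum of 2000 reads left 6 higher in Input, 4 in Polysome, 7 for loading in Ctrl and 9 in siRNAG5, and former TMEM names brought the latter to 23 and 32. The length of the canonical transcript gave a median of 5.51 TPM in place of 7.79. Apart from those given above, the shares of all genes called under these alternatives are not given here. The cause of these shifts was not tested, beyond fewer genes or libraries where the alternative itself removes them. Low counts limit members near the read minimum. The replicate numbers were not taken to pair the libraries, since same-numbered deviations correlated at -0.53 to 0.48 in Polysome and -0.03 to 0.07 in Input, and those of Input and Polysome at -0.07 to 0.19 in Ctrl and -0.21 to 0.22 in siRNAG5. The study took both fractions from the same lysates, but the labels do not say that a number marks a lysate. A replicate block called 11 higher and 13 lower in Input, 9 and 7 in Polysome, 12 and 27 for loading in Ctrl, 18 and 31 in siRNAG5 and 0 for the difference, and TMEM104 and TMEM138 then missed the threshold in Polysome.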

Other observations

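Members with a near relative in the family did not always move with it. TMEM161B rose in Input (0.78 ± 0.15) while TMEM161A, its paralog, had -0.24 ± 0.07, and loading in Ctrl was -0.31 ± 0.19 for TMEM161B and -1.32 ± 0.11 for TMEM161A, which was called. TMEM106C fell in Input (-0.72 ± 0.06) and TMEM106B, a lysosomal protein, had -0.25 ± 0.13, and in siRNAG5 cells TMEM106B was called higher in Polysome than Input (0.77 ± 0.14) with TMEM106C at -0.39 ± 0.17. TMEM38A was called lower in loading under both treatments, and TMEM38B had 0.05 ± 0.15 in Ctrl and 0.34 ± 0.12 in siRNAG5. Other pairs lay close together, with TMEM63A and TMEM63B both called lower in loading, TMEM14A and TMEM14B both falling in Input, at -0.50 ± 0.08 and -0.54 ± 0.07, and TMEM50A and TMEM50B at -0.28 ± 0.07 and -0.36 ± 0.10 without a call. The pairs were chosen after their values were seen, the differences within pairs were not tested, and reads that fit both genes of a pair were left out of the counts.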
